A study of Canis lupus familiaris with 2 samples.

Results

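OFF cone bipolar cells of the dog retina were described in droplet single-cell RNA-seq libraries of neuroretina from 2 normal, untreated male dogs, N350 and N354, both 40 weeks old. A cell was called an OFF cone bipolar cell when it held at least 1 UMI (unique molecular identifier, a count of captured RNA molecules) of *GRIK1* and at least 1 UMI each of 2 or more of *SAMSN1*, *CADPS*, *NRGN*, *IGSF21*, *SLC4A10*, *SCG2*, *GNG13* and *CACNA1H*. It also had to hold 0 UMIs of *TRPM1*, *PCP2*, *ISL1*, *GAD1*, *SLC6A9* and *LHX1*. The rule took 96 of 13282 cells with 200 or more detected genes, 61 of 8895 cells in N350 (0.686%, exact 95% binomial interval 0.525 to 0.880%) and 35 of 4387 cells in N354 (0.798%, 0.556 to 1.11%). These intervals, and all others below, cover counting error only. The study examined these libraries for the retinal cells that express genes of a canine retinal disease locus, and each dog gave 1 library, so that n = 2 animals throughout.

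Bipolar cells carry the signal of photoreceptors to ganglion and amacrine cells of the inner retina. At their dendrites, OFF cone bipolar cells receive glutamate through ionotropic AMPA and kainate receptors and are excited when light dims, whereas ON bipolar cells use the metabotropic receptor mGluR6 and its cation channel *TRPM1* and are excited when light brightens. Both release glutamate from ribbon synapses, and the ON class holds rod bipolar cells, which express protein kinase C alpha (*PRKCA*), and several ON cone bipolar types.

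The comparison classes were set by rules of the same kind. ON bipolar cells held 2 or more of *TRPM1*, *PCP2* and *ISL1* and numbered 344 in N350 and 282 in N354. *PRKCA* was found in 238 and 205 of them, so that most ON cells carried this rod bipolar cell marker. The other cells, neither OFF nor ON, numbered 8490 and 4070. The OFF cells summed to 165268 UMIs in N350 and 107122 in N354, against 1234659 and 712832 in ON cells. Median depth of an OFF cell was 1316 UMIs in N350 (range 586 to 18080) and 2212 in N354 (504 to 13844), and medians of ON cells were 2394 and 2500. Mitochondrial transcripts of 13 genes took a median of 18.9% of the UMIs of an OFF cell in N350 and 9.69% in N354, against 12.4% and 17.5% in ON cells and 6.12% and 7.45% in other cells. In N350 OFF cells therefore had more mitochondrial RNA than ON cells, and in N354 less. The libraries shared 6 cell barcodes. No barcode was an OFF cell in both dogs, and 1 OFF cell had a barcode that also occurred in the other library.

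Levels are given as UMIs per 10000 UMIs of the summed class, first for N350 and then for N354. The 15 genes of the rules were chosen by their values, so their levels describe the cells and were not tested. *GRIK1*, the kainate receptor subunit GluK1, stood at 13.1 and 13 in OFF cells, at 0.348 and 0.407 in ON cells and at 0.0766 and 0.0575 in other cells. A median OFF cell held 3 UMIs of *GRIK1* in N350 and 4 in N354, and 20 and 6 cells held a single UMI. Of the 8 further genes, *NRGN*, which encodes the postsynaptic protein neurogranin, stood at 7.68 and 3.73 in OFF cells against 0.0486 and 0 in ON cells. *SAMSN1* was at 5.08 and 5.41 against 1.62 and 1.73 in ON cells. *IGSF21*, an adhesion molecule, was at 2.78 and 3.73 against 0.761 and 1.16. *SCG2*, a secretogranin of dense-core vesicles, was at 12.5 and 23.8 against 2.51 and 2.92, but 3 OFF cells held 42, 38 and 57 of its UMIs while no other OFF cell held more than 17. The vesicle priming factor *CADPS* was at 5.32 and 6.72 against 3.86 and 3.18, and the bicarbonate transporter *SLC4A10* at 3.69 and 6.07 against 3.85 and 4.35, so that *CADPS* was above ON cells in both dogs and *SLC4A10* in N354 alone. *GNG13*, a G protein gamma subunit known from ON bipolar cells, was lower in OFF cells, at 4.96 and 9.06 against 22.0 and 43.4.

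Most cells with *GRIK1* that the rule left out held one of the absent genes. In all, 257 cells held *GRIK1*, and 85 of 173 in N350 and 44 of 84 in N354 had none of the 6 absent genes. Just inside the limit, 9 and 3 OFF cells held exactly 2 of the 8 further genes. Just outside it, 5 and 1 cells held 1 of them, and 19 and 8 held none. Of the 96 OFF cells, 56 held 5 or more of the 8 genes and 13 held all 8. A further 81 cells in N350 and 37 in N354 held *GRIK1* and 2 or more of the 8 genes but were shut out by an absent gene, most often *PCP2* (61 and 32), *TRPM1* (37 and 28) or *ISL1* (24 and 22) and less often the amacrine cell enzyme *GAD1* (16 and 3). Shares of cells with a UMI followed the levels. *NRGN* was detected in 63.9% and 51.4% of OFF cells, against 1.11% and 0.448% of Müller glia (cells with 2 or more UMIs each of *RLBP1*, *GLUL* and *SLC1A3*, 721 and 446 in number), which should lack it and whose median depths were 9495 and 7164.5 UMIs. With each OFF cell thinned to 1000 UMIs, which left 41 and 28 cells, the *NRGN* shares were 53.5% and 37.2%.

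**Figure D1:**
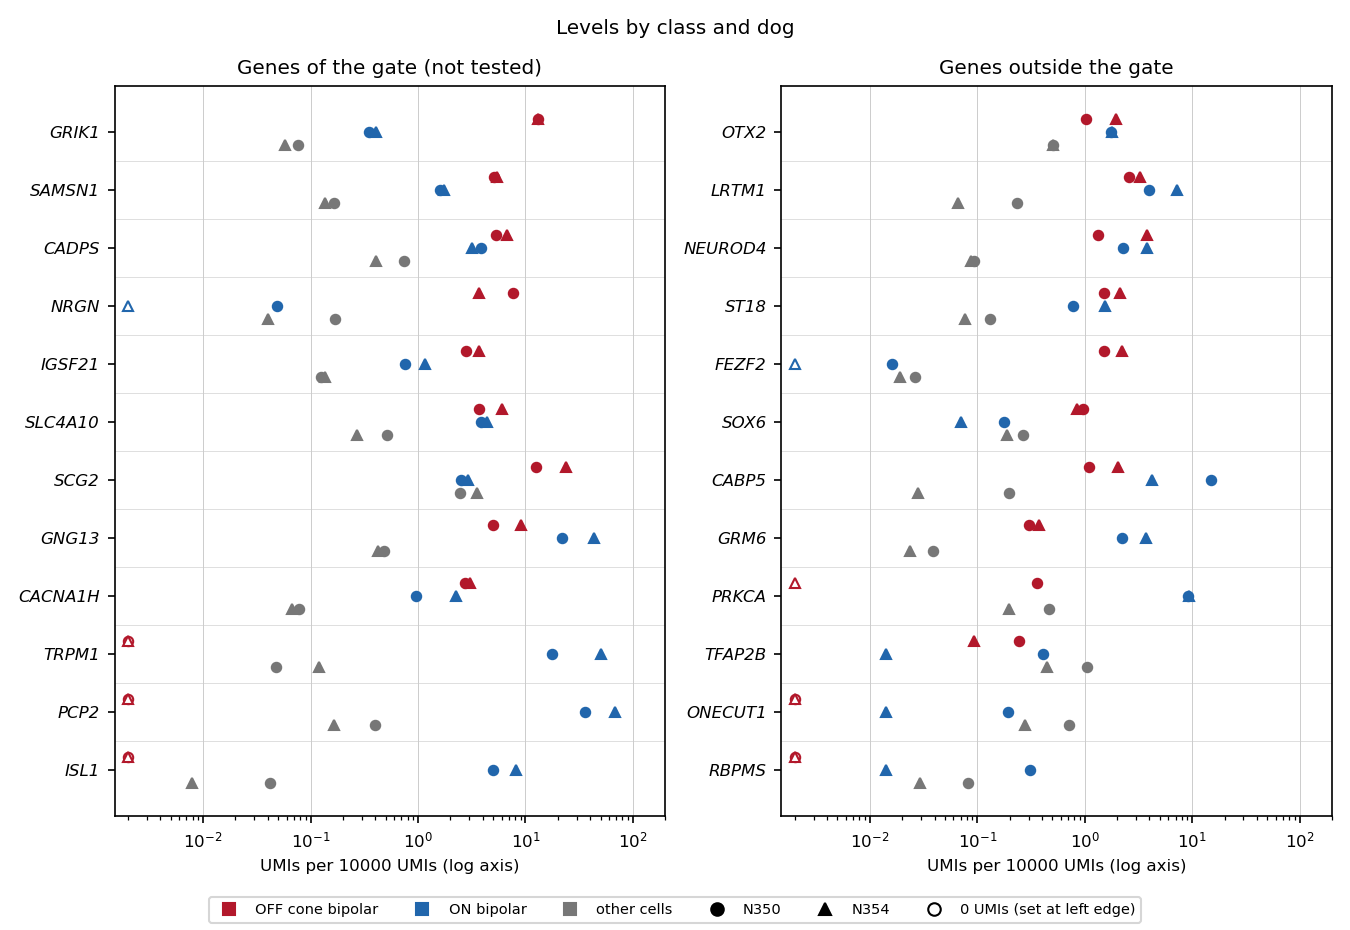
Levels (UMIs per 10000 UMIs, log axis) of 12 of the 15 genes of the selection rules, called the gate (left), and of 12 genes outside them (right), with 1 point per dog for OFF, ON and other cells and open points at the left edge for 0 UMIs. *GRIK1* lies at about 13 in OFF cells of both dogs and under 1 in the other classes, *GNG13* is lower in OFF than in ON cells, and *FEZF2* stands at 1.51 and 2.24 in OFF cells.

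Of the 96 OFF cells, 11 were rich in RNA of other cell types, 7 in N350 and 4 in N354. The rule for Müller glia was also met by 6 of them. Those 6 cells held 187 to 299 UMIs of *VIM* each in N350 and 252 to 586 in N354, where no OFF cell outside the 11 held more than 2. A further 2 cells, both in N350, held 10 or more UMIs of the cone arrestin *ARR3*, and 3 held the rod arrestin *SAG* at 0.5% or more of their UMIs. These 11 deep cells carried 44.8% of all OFF UMIs in N350 and 36.4% in N354, so the counts of calls below are also given for the 85 OFF cells and the 304 and 268 ON cells left without cells of this kind where they changed, a choice made after the data were seen. The Müller glia markers listed (12 genes, 10 of them in the annotation of N354) summed to 124 and 143 in all OFF cells and to 11.2 and 5.43 in the 85. *VIM* was the most abundant in all OFF cells of both dogs. The 85 cells were not free of rod RNA. The rod markers listed (13 genes, 11 of them in the annotation of N354) summed to 88.1 and 113 in all OFF cells, with *RCVRN* the most abundant, and to 78.3 and 72.4 in the 85, against 66.5 and 42.2 in ON cells and 230 and 317 in other cells.

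**Figure D2:**
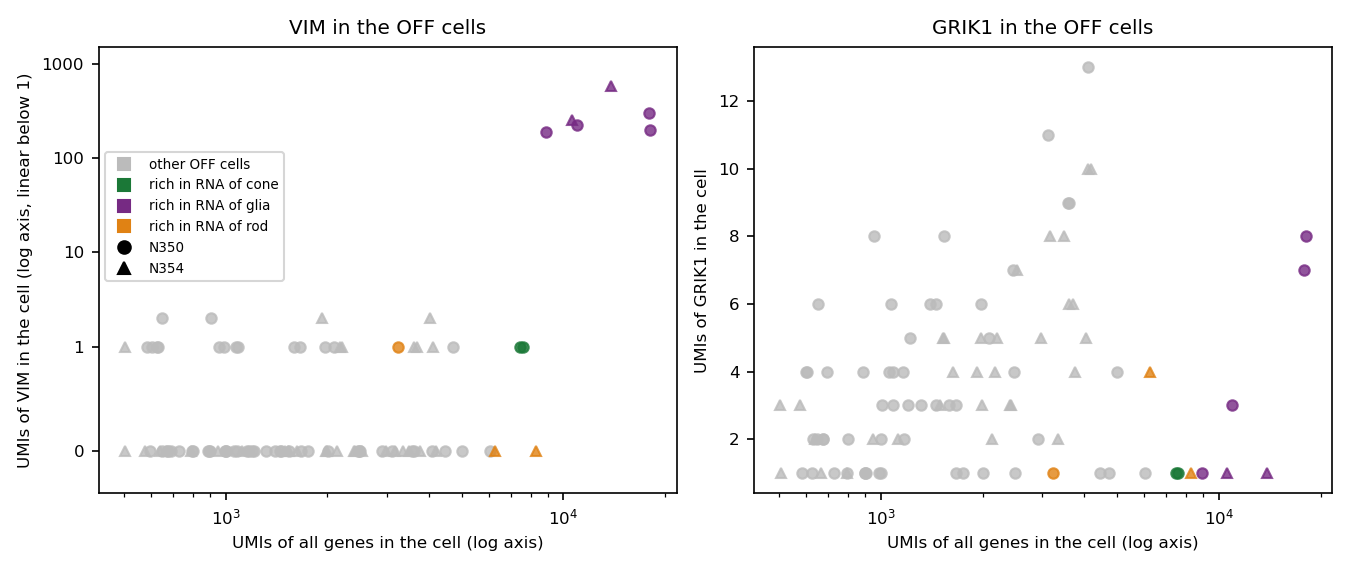
UMIs of *VIM* (left, log axis, linear below 1) and of *GRIK1* (right) in each of the 96 OFF cells against the UMIs of all genes in the cell (log axis), with the 11 cells rich in RNA of Müller glia, cones or rods in colour. The 6 cells with glial RNA hold 187 to 586 UMIs of *VIM* and are among the deepest, and no other OFF cell holds more than 2.

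Outside the selection rule, genes shared by bipolar cell types marked the OFF cells against the other cells. Tests used edgeR's quasi-likelihood method on class sums with the dog as a block and Benjamini-Hochberg adjustment over 9488 genes. They compared classes that had been selected on 15 genes, which were left out. The sums left 2 residual degrees of freedom, and each gene's spread was moderated towards that of all genes (10.7 prior degrees of freedom). A call can therefore rest on a single dog, as for *SNCG* below, and does not by itself show that a difference was repeated in both dogs. Against other cells, 8 of 9 tested bipolar cell genes were higher in OFF cells and 0 were lower, where 2.09% of all genes tested were higher and 1.05% lower, and their median log2 fold change was 3.83 against -0.16 over all genes tested. Against ON cells 0 of these 9 were higher and 3 were lower (among them *CABP5* and *PRDM8*, described below), where 1.73% of all genes were higher and 2.04% lower. *NEUROD4*, a proneural factor, was at 1.33 and 3.83 in OFF cells against 0.0930 and 0.0880 in other cells (log2 fold change 4.39 ± 0.34 SE, adjusted p = 2.39e-05). *LRTM1*, a leucine-rich repeat membrane protein, was at 2.60 and 3.27 against 0.235 and 0.0666 (4.05 ± 0.53, adjusted p = 7.73e-04). *OTX2*, which photoreceptors also express, was at 1.03 and 1.96 against 0.510 and 0.508 (1.25 ± 0.30, adjusted p = 0.0379), and turned to -0.28 with a limit of 5% on names starting with MT-. *LHX4* rose in the fit (4.22 ± 0.77) but held 23 UMIs in N350 and 0 in N354.

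Several defining markers of other inner retinal neurons were at 0, and others were detected. *ONECUT1* of horizontal cells, *RBPMS* and *POU4F2* of ganglion cells and the cholinergic amacrine genes *CHAT* and *SLC18A3* had 0 UMIs in the OFF cells of both dogs. All but *ONECUT1* were so rare in other cells too (*CHAT* held 11 UMIs over the other cells of both dogs, and *CHAT*, *SLC18A3* and *POU4F2* 0 in those of N354) that a 0 at the depth of the OFF cells says little. The vesicular inhibitory transporter *SLC32A1* held 6 and 0 UMIs and the glutamate decarboxylase *GAD2* 1 and 8. The amacrine cell markers listed (12 genes, 11 of them in the annotation of N354) summed to 4.24 and 2.05 in OFF cells (6.36 and 2.06 in the 85). They summed to 4.79 and 0.898 in ON cells and 8.86 and 3.85 in other cells. *C1QL1* was the most abundant in OFF cells of N350, with 21 of its 23 UMIs in 1 cell, and *MEIS2* (13 UMIs) in N354. The horizontal cell markers (9 genes, 8 of them in the annotation of N354) summed to 2.42 and 1.12 in OFF cells against 15.1 and 6.14 in other cells, led by *SEPTIN4* with 14 UMIs in N350. The ganglion cell markers (13 genes, 11 of them in the annotation of N354) summed to 1.75 and 0.467 against 5.82 and 1.30, led by *STMN2* with 16 UMIs in N350. These sums lay below those of other cells in both dogs. That of the amacrine cell markers was above ON cells in N354 with all OFF cells, and in both dogs with the 85. The part of these markers in the results was not tested. The OFF cone bipolar factor *VSX1*, known from mouse, held 1 UMI in each dog, and the bipolar cell gene *SCGN* held 0 in every class, so neither gene bore on the label. *GRIK1* and the absent genes were fixed by the rule, and of the genes outside it those shared by bipolar cell types marked the cells as bipolar. At this depth a low level of *VSX1* cannot be told from its absence. Rod markers were detected in all classes, and *SAG* was at 8.53 and 20.7 in OFF cells, 9.87 and 5.56 in ON cells and 32.5 and 55.0 in other cells.

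Against ON bipolar cells, 358 of 9488 genes were called at an adjusted p under 0.05 (3.77%), of which 164 were higher in OFF cells (1.73%) and 194 lower (2.04%). Of these, 351 moved the same way in both dogs. Without the 11 OFF cells and the ON cells rich in other types' RNA, 180 genes were called higher and 230 lower, and 286 of 355 calls that could be compared kept their direction and threshold. Without the dog as a block, edgeR called 0 genes, with 519 at an unadjusted p under 0.05 and a lowest adjusted p of 0.554. With the block, DESeq2 called 219 higher and 147 lower and made 307 of the 358 calls the same way. When ON cells with *PRKCA* were left out, which kept 106 and 77 ON cells, 67 genes were called higher and 95 lower.

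The genes with the largest fitted rises in OFF cells were led by *GPX6*, a glutathione peroxidase. It held 10 UMIs in 8 OFF cells of N350 and 190 UMIs in 21 OFF cells of N354, and 0 among ON cells of either dog, at least 477-fold higher in OFF cells over both dogs (adjusted p = 6.29e-06). This bound rests on N354, where it was 421-fold taken alone, against 24.9-fold in N350. Its OFF levels, 0.605 and 17.7, differed more between the dogs than those of other leading genes. *FEZF2*, a zinc-finger transcription factor best known from forebrain projection neurons, held 25 and 24 UMIs in OFF cells against 2 and 0 in ON cells. That put its level at 1.51 and 2.24 against 0.0162 and 0, with a log2 fold change of 7.27 ± 0.79 (adjusted p = 2.37e-04). A *FEZF2* UMI was found in 27.9% and 51.4% of OFF cells (20.0% and 27.7% after thinning to 1000 UMIs) and in 0.555% and 0.224% of Müller glia. Both genes were also called with the 85 OFF cells and against ON cells without *PRKCA*.

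The third leading gene was *ESAM*, an endothelial cell adhesion molecule, with 33 and 12 UMIs in OFF cells and 1 and 1 in ON cells (7.20 ± 0.72, adjusted p = 1.52e-04). In the RefSeq gene order of the dog assembly UU_Cfam_GSD_1.0 it lies 1 gene, *VSIG2*, away from *NRGN*, which the rule used. *COX4I2*, an isoform of cytochrome c oxidase subunit 4, held 21 and 30 UMIs against 4 and 0 (6.48 ± 0.79). *SLITRK6*, a synaptic adhesion protein, held 21 and 35 against 13 and 0 (4.79 ± 0.70).

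The calcium channel gene *CACNA1A*, described below, was also among the 12 genes with the largest fitted rises. The secreted factor *TAFA4* was at 52 and 12 UMIs against 12 and 4 (4.71 ± 0.45), and *NPHS1*, the adhesion protein nephrin, was at 32 and 54 against 12 and 16 (4.14 ± 0.35). The microtubule-binding *DCDC2* (5.21 ± 0.76), the actin-associated *LMO7* (4.46 ± 0.71), the methionine sulfoxide reductase *MSRB3* (4.15 ± 0.43) and the signalling adaptor *SKAP1* (5.93 ± 1.06) also rose. Of the 12, *SKAP1* alone lost its call against ON cells without *PRKCA* (adjusted p = 0.0916).

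**Figure D3:**
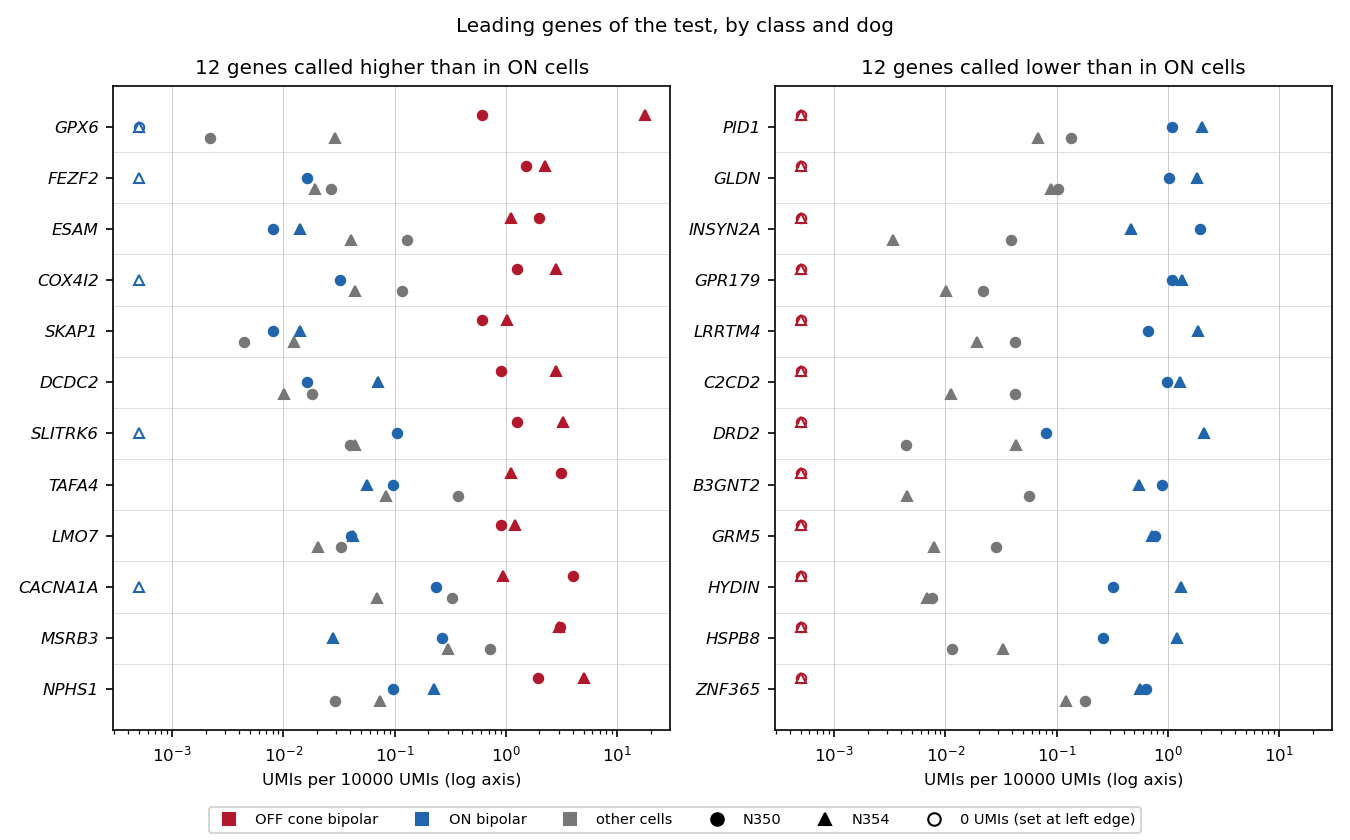
Levels (UMIs per 10000 UMIs, log axis) in OFF, ON and other cells, 1 point per dog, of the 12 genes with the largest fitted rises (left) and falls (right) of OFF against ON cells, with open points at the left edge for 0 UMIs. The OFF points of *FEZF2* stand at 1.51 and 2.24 against 0.0162 and 0 in ON cells, and the 12 genes on the right have 0 UMIs in OFF cells of both dogs.

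All of the 12 genes with the largest fitted falls had 0 UMIs in the OFF cells of both dogs. Their differences are lower bounds set at 3 UMIs over the class, so their order against genes detected in OFF cells, such as *PRKCA* and *PROX1* below, is not known. With a dog taken alone, at 3 UMIs over its own OFF cells, the bounds are lower, except that of *DRD2* in N354 (7.61-fold against 7.55-fold over both dogs). *PID1*, a phosphotyrosine-interaction adaptor, held 133 and 145 UMIs in ON cells and was at least 13-fold lower in OFF cells (5.93-fold in N350 and 7.26-fold in N354 alone, adjusted p = 0.00632). *GLDN*, the extracellular matrix protein gliomedin, held 127 and 129 and was at least 11.9-fold lower (5.67- and 6.46-fold alone, adjusted p = 0.00181). *GPR179*, an orphan receptor of the ON cascade, held 133 and 96 (at least 10.7-fold lower, 5.93- and 4.81-fold alone, adjusted p = 0.00306).

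Others in this group have roles at synapses. *LRRTM4*, an adhesion protein of bipolar cell synapses, held 82 and 132 UMIs in ON cells (at least 9.98-fold lower in OFF cells, 3.66- and 6.61-fold with a dog alone), *INSYN2A*, a protein of inhibitory synapses, 238 and 33 (at least 12.6-fold lower), and the dopamine D2 receptor *DRD2* 10 and 152 (at least 7.55-fold lower). The bound of *DRD2* rests on N354, since its ON level in N350, 0.0810, was below the level of 3 UMIs in OFF cells, 0.182. That of *INSYN2A* rests on N350, with 10.6-fold there and 1.65-fold in N354. *GRM5*, the metabotropic glutamate receptor mGluR5, held 94 and 51 (at least 6.76-fold lower, 4.19- and 2.55-fold with a dog alone). *C2CD2*, *B3GNT2*, *HYDIN*, *HSPB8* and *ZNF365* were at least 5.50- to 9.98-fold lower over both dogs and 1.43- to 5.44-fold within a dog, the lowest for *HSPB8* in N350. Against ON cells without *PRKCA* the calls of *PID1*, *GLDN*, *GPR179* and *ZNF365* passed the test and those of the other 8 did not, with *GRM5* at an adjusted p of 0.11.

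Among 20 tested transcription factors of bipolar cells, 3 were higher and 2 lower in OFF than in ON cells (1.73% and 2.04% over all genes tested), with a median of 0.57 against -0.11 over all genes tested. Without the cells rich in other types' RNA 5 were higher, *IRX6* among them, whose 6 and 7 OFF UMIs came from 1 cell of N350 and 2 of N354. Those were the 3 cells with 42, 38 and 57 UMIs of *SCG2*. Beside *FEZF2*, *SOX6* was at 0.968 and 0.840 in OFF cells against 0.178 and 0.0701 in ON cells (2.61 ± 0.47, adjusted p = 0.00809), and the nuclear factor *NFIB* at 2.66 and 0.840 against 0.591 and 0.126 (2.17 ± 0.32, adjusted p = 0.00251). *PRDM8*, a histone methyltransferase family member known from rod bipolar cells, was at 0.182 and 0.0934 against 3.60 and 1.44 (-4.44 ± 0.51, adjusted p = 3.36e-04). Against ON cells without *PRKCA* *FEZF2* was called and *SOX6*, *NFIB* and *PRDM8* were not.

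*PROX1*, which horizontal and bipolar cells express, was lower as well, at 0.303 and 0.280 against 6.77 and 3.84 (-4.52 ± 0.46, adjusted p = 1.82e-04), also against ON cells without *PRKCA* (-3.16). Of 18 tested genes described for OFF types in other species, 3 were higher (*FEZF2*, *SOX6* and *RCVRN*) and 1 was lower (*CABP5*), with a median of 0.35, beside the same shares and median over all genes. Without the cells rich in other types' RNA 5 were higher, with *IRX6* and the cadherin *CDH8* added. Recoverin, *RCVRN*, a calcium sensor of photoreceptors and of some OFF bipolar types, was at 26.7 and 29.1 in OFF cells and 10.2 and 11.1 in ON cells (1.17 ± 0.29, adjusted p = 0.0444). It turned to -0.27 with a limit of 5% on names starting with MT-, which left 2 OFF cells in N354. In the 85 cells it was at 12.1 and 24.7 (1.0, adjusted p = 0.0457). Its ratio to the rod gene *SAG* was 3.13 and 1.41 in OFF cells, against 1.04 and 2.0 in ON cells and 1.31 and 1.43 in other cells. In N354 the ratio was thus lower in all OFF cells than in ON cells. Without the cells rich in other types' RNA, which *SAG* had helped to pick, it was 1.33 and 2.10 in OFF cells and 1.11 and 1.34 in ON cells. The ratio of N354 was then higher in OFF cells. In N350, 280 of the 441 OFF UMIs of *RCVRN* lay in 2 cells, those rich in cone RNA. The part of rod and cone RNA in the rise of *RCVRN* was not tested.

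Genes of glutamate receptors, their partners and scaffolds, with *GRIK1* left out, moved in both directions. Of 40 listed genes 24 could be tested, 1 was higher and 2 were lower than in ON cells, where 1.73% of all genes tested were higher and 2.04% lower, and their median was 0.11 against -0.11 over all genes. *GRM7*, the presynaptic metabotropic receptor mGluR7, was at 0.908 and 1.12 in OFF cells against 0.0972 and 0.112 in ON cells (3.05 ± 0.55, adjusted p = 0.00749), and its call was lost against ON cells without *PRKCA* (1.58, adjusted p = 0.259). *DLG2*, a postsynaptic scaffold, was at 3.51 and 1.12 against 7.06 and 4.80 (-1.59 ± 0.32, adjusted p = 0.0142). Beside them *GRM5* was undetected in OFF cells, as given above.

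None of the 4 AMPA receptor subunits was called. *GRIA1* was at 0.545 and 0.653 in OFF cells against 0.211 and 0.0421 in ON cells (2.01, adjusted p = 0.0969), and *GRIA3* at 0.484 and 0.187 against 1.18 and 1.02 (-1.91, adjusted p = 0.0639). In OFF cells of N350, 7 of the 8 *GRIA3* UMIs lay in 2 cells, which held 3 and 2 of the 8 further genes of the rule. *GRIA2* was at 1.27 and 0.840 and *GRIA4* at 0.484 and 1.12, each on 8 to 21 UMIs a dog. Of the kainate subunits, *GRIK2* was at 2.12 and 0.747 against 0.907 and 0.575 (0.69), *GRIK3* had 0 UMIs in OFF and ON cells, and *GRIK4* had 2 and 3 UMIs in OFF cells. Against other cells, *GRIK2* (2.51 ± 0.41), *GRM7* (3.74 ± 0.49), *DLG2* (1.82 ± 0.33) and the kainate receptor partner *NETO1* (3.70 ± 0.69) rose, 4 of the 24 (2.09% over all genes tested), and 5 of 23 rose with the 85 OFF cells. The 8 *NETO1* UMIs of N350 and the 4 of N354 came from 2 OFF cells in each dog.

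Genes of the mGluR6 cascade were among those lower in OFF cells, which had been selected to lack *TRPM1*, the channel at the end of that cascade. Of 14 tested genes that the rules did not use, 6 were lower and 0 higher (2.04% and 1.73% over all genes tested), and the median was -1.90 against -0.11. *GRM6*, which encodes mGluR6, was at 0.303 and 0.373 in OFF cells against 2.24 and 3.72 in ON cells (-3.36 ± 0.47, adjusted p = 0.00168). *GNAO1*, its G protein alpha subunit, was at 1.75 and 1.12 against 16.8 and 8.54 (-3.42 ± 0.37, adjusted p = 2.37e-04).

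*PRKCA* itself, which the rules did not use, was at 0.363 and 0 against 9.18 and 9.31 (-5.73 ± 0.56, adjusted p = 1.29e-04). *GNB3*, the beta subunit shared with cones, held 66 UMIs in N350, 95.5% of them in cells rich in other types' RNA, and 1 UMI in N354 (-2.41 ± 0.56, adjusted p = 0.0297). Without those cells the difference was -5.62. *RGS11* (-0.71) and *LRIT1* (-0.05) were not called. *GRM6*, *GNAO1* and *GPR179* were also called against ON cells without *PRKCA*, and *GNB3* was not (adjusted p = 0.124). Although lower than in ON cells, *GRM6* was higher in OFF cells than in other cells (3.09 ± 0.71, adjusted p = 0.0328), on 5 and 4 UMIs.

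Among ribbon synapse and release genes, more were lower than higher in OFF cells. Of 47 listed genes 39 were tested, 1 was higher and 4 were lower than in ON cells, against 1.73% higher and 2.04% lower over all genes tested, and their median was -0.44 against -0.11. A count of 2 higher genes, with *RAB3B* added, was found without the cells rich in other types' RNA. *CPLX4*, the complexin of photoreceptor and bipolar cell ribbons, was at 18.8 and 6.91 in OFF cells against 5.62 and 1.12 in ON cells (1.89 ± 0.29, adjusted p = 0.00269). In other cells *CPLX4* was at 17.1 and 7.30, and it was not called against them. The 11 cells rich in other types' RNA held 56.5% and 25.7% of its OFF UMIs, and without them it was at 14.8 and 8.07 and still higher (2.17). A *CPLX4* UMI was found in 75.4% and 65.7% of OFF cells, but in the deeper Müller glia also in 98.5% and 68.2% and the unthinned share is read as background. Thinned to 1000 UMIs, the shares were 76.8% and 46.9% of OFF cells and 69.2% and 23.3% of Müller glia.

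The lower genes were the active zone scaffold *PCLO* (0.968 and 2.43 against 2.94 and 6.79, -1.80 ± 0.27), the membrane fusion protein *SNAP25* (17.1 and 9.15 against 39.8 and 25.1, -1.61 ± 0.29), *SYT4* (-2.09 ± 0.48) and the priming factor *UNC13B* (-1.34 ± 0.33). Against ON cells without *PRKCA* these 4 calls were lost and *CPLX4* kept its own (1.29, adjusted p = 0.0333). The other priming factor *UNC13C*, at 2.90 and 5.32 in OFF cells and 2.66 and 4.14 in ON cells, did not differ in the fit (0.00) and was higher than in other cells (4.11 ± 0.30, adjusted p = 1.7e-05), as were *RAB3B* (4.03 ± 0.84) and *CPLX3* (1.68 ± 0.41).

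Among receptors for GABA and glycine, *GABRR2* stood between the classes, lower in OFF than in ON cells and higher than in other cells. Of 26 listed genes 15 were tested, and 0 were higher and 1 was lower than in ON cells (1.73% and 2.04% over all genes tested). The 1 lower gene was *GABRR2*, a GABA-C receptor subunit, at 0.182 and 2.99 against 1.57 and 7.11 (-1.98 ± 0.35, adjusted p = 0.00735). Its call was lost against ON cells without *PRKCA*. Against other cells 3 of the 15 rose, among them *GABRR2* (4.05 ± 0.42, adjusted p = 1.88e-04), with a median of 0.98 against -0.16 over all genes (2.09% of which were higher), and 6 without the cells rich in other types' RNA.

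The pore subunit of P/Q-type calcium channels, *CACNA1A*, was the ion channel gene that rose in OFF cells. It held 67 UMIs in 36 of 61 OFF cells of N350 and 10 UMIs in 8 of 35 of N354, against 29 and 0 in ON cells. Its level was 4.05 and 0.934 against 0.235 and 0 (4.30 ± 0.48, adjusted p = 2.68e-04), and it was called against ON cells without *PRKCA* too (3.19). Of 30 tested channel genes it was the 1 higher, and *KCNH7* (-2.43 ± 0.47) and *KCNAB2* (-2.96 ± 0.63) were the 2 lower (1.73% higher and 2.04% lower over all genes tested), with a median of -0.03 against -0.11. With the 85 OFF cells 2 were higher. Against other cells 5 were higher and 2 lower (2.09% and 1.05% over all genes tested), and 7 and 4 with the 85. Among them were the calcium-activated potassium channel *KCNMA1* (0.363 and 4.20 against 0.0647 and 0.141, 3.75 ± 0.41), the sodium channel *SCN2A* (3.12 ± 0.37) and the pacemaker channel *HCN2* (2.84 ± 0.60), whose 13 OFF UMIs all came from N350.

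Of 15 tested genes for calcium-binding proteins, 1 was higher (*RCVRN*) and 2 were lower (*CABP5* among them) than in ON cells (1.73% and 2.04% over all genes tested), with a median of -0.65 against -0.11. *CABP5*, which several bipolar cell types express, was at 1.09 and 2.05 against 14.9 and 4.19 (-2.67 ± 0.52, adjusted p = 0.0117), and it lost its call against ON cells without *PRKCA* (-1.04). With the 85 OFF cells 3 were higher. *CABP2* was among them (3.36, adjusted p = 0.0166) but was not called with all cells (2.85, adjusted p = 0.0675), and against other cells it was at 0.605 and 1.03 against 0.00487 and 0.00902 (6.65 ± 0.83, adjusted p = 4.97e-04). *PCP4*, a small protein known from Purkinje cells, was at 19.7 and 36.7 in OFF cells, was not called against ON cells (34.4 and 37.8, -0.65, adjusted p = 0.321) and was higher than in other cells (1.93 and 1.05, 3.97 ± 0.34, adjusted p = 4.22e-05). In N350, 2 ON cells held 2367 of the 4248 ON UMIs of *PCP4*, and with each ON cell weighted equally its ON level there was 19.9. The calbindins *CALB1* (0.363 and 0 against 5.12 and 1.96, -4.49 ± 0.64) and *CALB2* (-3.40 ± 0.71) were lower than in other cells, which include the inhibitory neurons.

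Adhesion and wiring genes moved in both directions. Of 60 listed genes 46 were tested, 5 were higher and 4 lower than in ON cells (1.73% and 2.04% over all genes tested), with a median of -0.04 against -0.11. In the cells left after those rich in other types' RNA were removed, 8 were higher. *TENM3*, a teneurin, was at 0.424 and 1.96 against 0.0486 and 0.0842 (3.66 ± 0.55, adjusted p = 0.00263), and *CNTNAP5*, a contactin-associated protein, at 0.242 and 1.96 against 0.0324 and 0.0842 (3.72 ± 0.66, adjusted p = 0.00725). *DSCAM* (4.14 ± 0.91), *CNTN3* (3.94 ± 0.93) and *NLGN1* (2.82 ± 0.58) also rose, on 17 to 18 OFF UMIs each over both dogs, but 16 of those of *NLGN1* came from N350 and 1 from N354. *EPHA7*, an ephrin receptor, was at 0.242 and 1.21 against 1.54 and 5.02 (-2.50 ± 0.39, adjusted p = 0.0031), and *ROBO2*, a Slit receptor, at 0.363 and 0.0934 against 1.29 and 1.57 (-2.68 ± 0.49, adjusted p = 0.00875). *CDH12* (-5.07 ± 1.22) was lower and *LRRTM4* undetected. Against ON cells without *PRKCA*, *CNTNAP5*, *NLGN1*, *EPHA7* and *ROBO2* were called and the other 5 were not. Of 11 granin and peptide genes, *VGF* was lower (-1.73 ± 0.43, adjusted p = 0.0432), with 32 of its 52 ON UMIs of N354 in 2 cells, and it was not called without the cells rich in other types' RNA (adjusted p = 0.328).

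**Figure D4:**
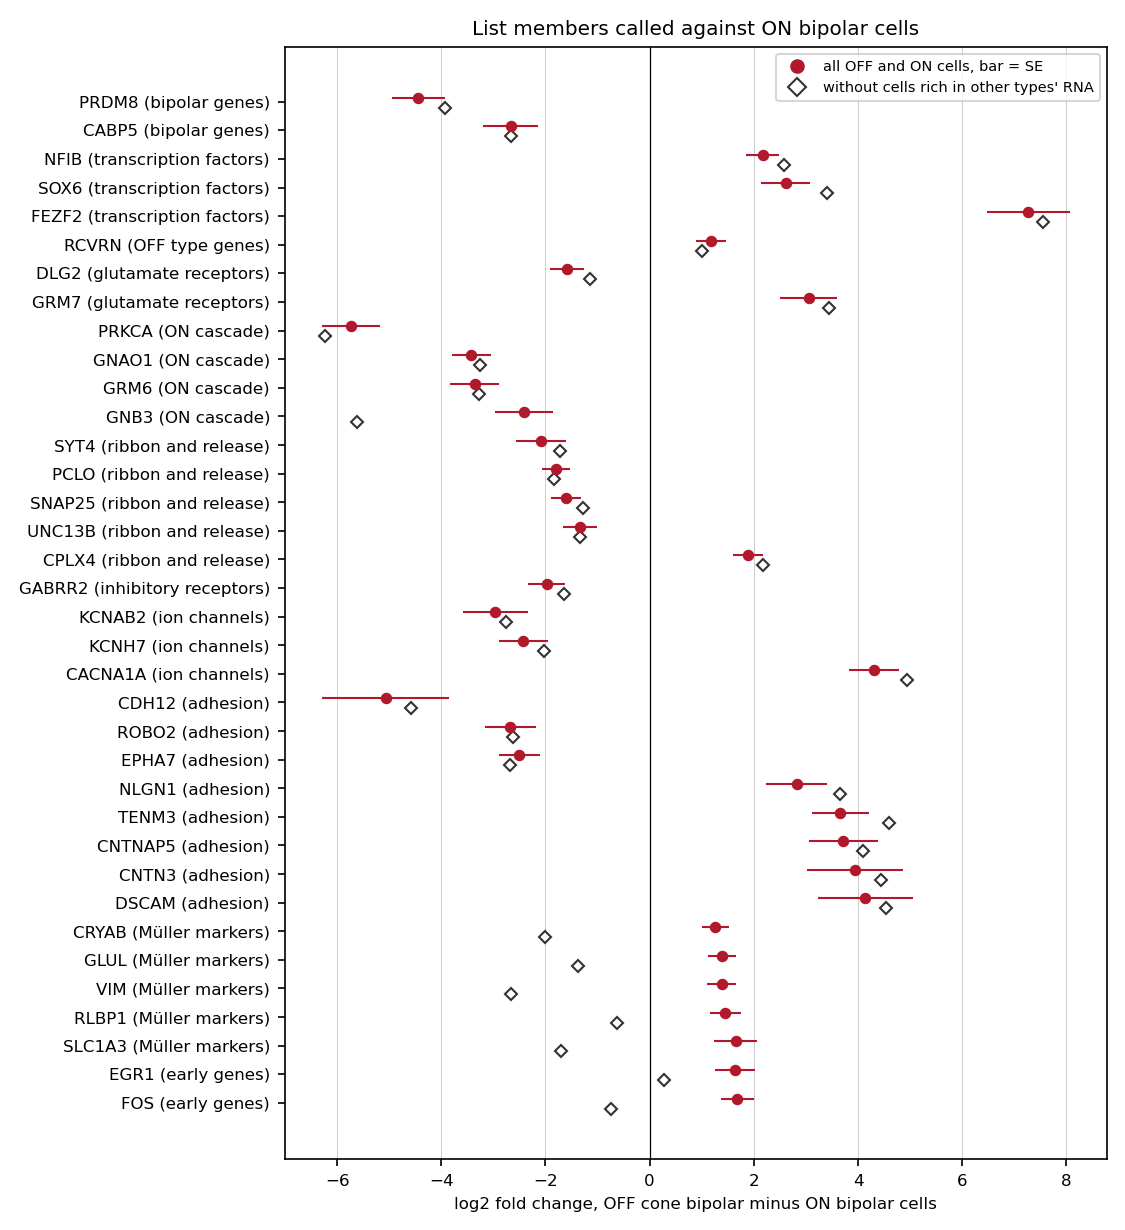
Log2 fold changes of OFF against ON bipolar cells for called list members described here with UMIs in both classes, as points with the SE as a bar, and as open diamonds without the cells rich in other types' RNA. *GRM6* (-3.36) and *GNAO1* (-3.42) lie on the low side with both sets of cells and *CACNA1A* (4.30) on the high side, whereas the diamonds of the Müller markers, *VIM* at -2.67 among them, cross to the low side.

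Ganglion cell genes were among those lower in OFF than in ON cells. *NEFL*, a neurofilament, held 4 and 0 UMIs in OFF cells and 2169 and 48 in ON cells (-6.14 ± 0.49), but 2067 of the ON UMIs of N350 lay in 2 cells. *NEFM*, another neurofilament, held 3 and 3 UMIs in OFF cells and was found in 140 of 344 and 152 of 282 ON cells (-5.52 ± 0.69, adjusted p = 0.000625), with 716 of its 1076 ON UMIs of N350 in 2 cells. Against ON cells with a *TRPM1* UMI, a choice made after the data were seen, *NEFL* was at -3.22 (adjusted p = 0.132), *NEFM* at -4.84 (adjusted p = 0.00482) and *STMN2* moved from -3.06 to -1.57 (adjusted p = 0.0775). Over all genes tested, 1.73% were higher and 2.04% lower than in ON cells, and 2.09% and 1.05% than in other cells. Of 9 tested ganglion cell markers 4 were lower against ON cells. *SNCG* was among them, with 309 of its 310 ON UMIs of N350 in 2 cells and 0 ON UMIs in N354. Of 9 amacrine cell markers 0 were called in either direction (1, *GAD2*, was higher without the cells rich in other types' RNA), and of 7 horizontal cell markers 1, *PROX1*, was lower. Of 9 tested cone markers 0 were called, and *ARR3* and *GNAT2* had 0 UMIs in the OFF cells of N354. None of 2 tested microglial and vascular markers and of 3 astrocyte markers was called in either comparison.

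Müller glia genes were higher in OFF than in ON cells when all cells were used. Of 10 tested markers 5 were higher and 0 lower (1.73% and 2.04% over all genes tested). *VIM* was at 56.1 and 79.2 against 22.1 and 21.1 (1.38 ± 0.28, adjusted p = 0.0139) and *GLUL*, glutamine synthetase, at 24.8 and 37.0 against 10.9 and 8.60 (1.38 ± 0.27, adjusted p = 0.0117). The 11 cells rich in other types' RNA held 98.2% and 98.8% of the OFF UMIs of *VIM* and 94.1% and 98.2% of those of *GLUL*. Without them, 0 of the 10 were higher and 2 were lower, and *VIM* stood at -2.67. The OFF and ON cells left out had been picked by the same Müller and photoreceptor genes, so that lower levels of these genes are built into both classes. The direction of the difference between the classes is not. The ON cells left out held 77.8% and 50.0% of the ON UMIs of *VIM*. The immediate early genes *FOS* (41.5 and 13.5 against 17.6 and 1.95, 1.68 ± 0.32) and *EGR1* (1.64 ± 0.38) were the 2 of 10 stress genes called, both higher (1.73% over all genes tested). The 11 OFF cells held 93.0% and 94.5% of the OFF UMIs of *FOS*. Without the cells rich in other types' RNA *FOS* stood at -0.74 and 0 of 9 were called. Of 6 tested genes used to track depth, 0 were called in either comparison with all cells. Without the cells rich in other types' RNA, 0 were called against ON cells and 5 were lower than in other cells.

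Against all other cells, 298 genes were called (3.14%), 198 higher in OFF cells (2.09%) and 100 lower (1.05%). This comparison uses the same OFF sums as that with ON cells, so the 2 are not independent. Without the cells rich in other types' RNA 309 were called higher and 618 lower, and 291 of 293 calls that could be compared kept their direction and threshold. Among the genes then lower were 10 of 10 tested Müller glia markers, 5 of 5 cone markers, 11 of 11 rod markers and 8 of 9 stress genes. The cells left out had been picked by glial and photoreceptor genes, and the other cells were not filtered in this way. A fall of glial and photoreceptor genes is therefore built into the filtered comparison. Without the block 0 were called by edgeR (403 at an unadjusted p under 0.05), and with it DESeq2 called 264 higher and 70 lower. *GPX6* (8.59 ± 0.39), *DCDC2* (6.45 ± 0.67), *SKAP1* (6.43 ± 0.83), *FEZF2* (6.07 ± 0.55), *NPHS1* (5.83 ± 0.33), *SLITRK6* (5.41 ± 0.59) and *LMO7* (5.04 ± 0.60) were among the 12 with the largest fitted rises here as well.

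The others of the 12 were *CABP2*, *ZNF804B*, *ELAPOR2*, *ANKRD55* and *VAV3*. *ZNF804B*, a zinc-finger protein, held 21 and 36 OFF UMIs (5.64 ± 0.50), and *VAV3*, a guanine nucleotide exchange factor, 34 and 42 (4.57 ± 0.35). *ELAPOR2* was at 4.88 ± 0.41 and *ANKRD55* at 4.77 ± 0.47. Further rises among the lists were *CDH8* (0.182 and 0.840 against 0.00664 and 0.0169, 4.95 ± 0.94), the homeobox gene *IRX6* (3.79 ± 0.85, from the 3 cells named above) and *ST18* (3.83 ± 0.44). Of the 20 transcription factors 9 were higher and 1 lower (2.09% and 1.05% over all genes tested). The lower gene was the photoreceptor factor *CRX* (7.38 and 5.69 against 13.3 and 10.3, -1.08 ± 0.24).

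Among the 12 genes with the largest fitted falls against other cells, *ONECUT1* and *FGG*, a fibrinogen chain, had 0 UMIs in OFF cells and 1615 and 249, and 1420 and 211, in other cells, at least 5.38- and 4.71-fold lower. Both bounds rest on N350, since the levels in other cells of N354, 0.281 for *ONECUT1* and 0.238 for *FGG*, were about equal to and below the 0.280 that 3 UMIs make in OFF cells. The short-wave cone opsin *OPN1SW* (-4.97 ± 1.15), the potassium channel *KCNJ14* (-4.66 ± 0.77), *IGFBP2* (-4.39 ± 0.76), the apolipoprotein *APOA1* (-4.33 ± 0.61) and the neuronal ubiquitin hydrolase *UCHL1* (-3.11 ± 0.48) fell on 1 to 10 OFF UMIs each. *KIAA1671* (-3.85 ± 0.94) and *SUSD3* (-3.22 ± 0.78) were among the 12 too, beside *CALB1* and *CALB2*. *SUSD3* was called the same way in 3 of 10 alternatives, *KIAA1671* in 5 of 9 and *OPN1SW* in 4 of 8, so these 3 calls depended on the processing. Of 11 tested rod markers 10 were lower (1.05% over all genes tested), among them *PRPH2* (-2.0 ± 0.30) and *SAG* (-1.90 ± 0.36).

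Among the 85 OFF cells, which still held rod RNA as given above, a few genes varied from cell to cell by more than counting error. For 552 genes with 15 or more UMIs in each dog, the ratio of the squared deviation to that expected from counting had a median of 1.04 in N350 and 1.02 in N354. It was 4.27 and 5.24 for *PCP4*, which was found in 42 of 54 cells with up to 27 UMIs and in 26 of 31 with up to 39. By the lower of the 2 dogs' ratios, the rod gene *PDC* (5.07 and 7.01), *PCP4* and the rule's own *SCG2* (4.26 and 6.94) led, followed by the rod genes *PDE6G* (3.23 and 5.76), *GNGT1* (3.03 and 7.32) and *SAG* (2.77 and 5.29). *CABP5* (2.52 and 2.18) and *UNC13C* (1.84 and 2.01) were also spread unevenly. These genes were picked after their values were seen, 85 cells were too few for a division into types, and none was made.

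The genes of the locus that the study is about, named here for that reason and after their values were seen, were at low levels in OFF cells. *SPATA7*, a protein of the photoreceptor connecting cilium, held 7 and 4 UMIs in OFF cells, a level of 0.424 (exact 95% Poisson interval 0.170 to 0.873) and 0.373 (0.102 to 0.956). ON cells were at 0.437 and 0.926 and other cells at 0.421 and 0.720. *PTPN21*, a protein tyrosine phosphatase, held 8 UMIs and 1 UMI, a level of 0.484 (0.209 to 0.954) and 0.0934 (0.00236 to 0.520), against 0.316 and 0.182 in ON cells and 0.447 and 0.470 in other cells. The levels of *SPATA7* and *PTPN21* in ON and other cells lay within the counting intervals of the OFF cells in both dogs, so that a difference was not detectable at this depth.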

How the data were processed

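Neuroretina of 2 normal dogs was profiled by 3' droplet single-cell RNA-seq, 1 library per dog. The authors deposited filtered gene-by-barcode matrices of raw UMI counts made with Cell Ranger 6.0.2 per the file headers, against the dog assembly canFam6 per the study's methods. They held 8900 and 4392 barcodes and 24030707 and 9711202 UMIs in N350 and N354. The gene annotations differed (34981 and 19930 names, 15224 shared), so that dog and annotation cannot be told apart, and only shared names were tested. Barcodes with under 200 genes were left out (5 per dog). No mitochondrial limit or doublet removal was applied in the main analysis, and 0 columns of other samples were left unused.

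Sums of UMI counts over each class of each dog were tested with edgeR 4.0.16 (quasi-likelihood, TMM, dog as a block) in R 4.3.3 over 9488 shared genes with 10 or more UMIs in the OFF and ON sums. The pairing comes from the animals. Deviations of the same dog's sums correlated at 0.708 (OFF and ON), 0.765 (OFF and other) and 0.852 (ON and other) across genes. In these values animal and annotation cannot be told apart. On simulated counts, 200 genes with 10 or more expected UMIs in the OFF sums were raised in OFF cells by 2 log2 units. Of these, 94.5% were called in each comparison, with 9 (ON) and 7 (other) false calls. The simulation gave all genes the same dispersion. It held no falls and no rises of genes with fewer expected OFF UMIs, so the share called does not cover those. DESeq2 1.42.0 was an alternative. Cells were read and drawn with Python 3.11.15, scanpy 1.11.5 and matplotlib 3.10.9.

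Named genes were the 12 with the largest rises and falls among called genes that moved the same way in both dogs with 10 or more UMIs in the higher class of each, called members of the gene lists with up to 6 others per list, and the rule and marker genes. Identifiers without a symbol were not named, and a few genes of the lists are counted but not reported here. Medians of lists set genes with 0 UMIs in a class at their bound of 3 UMIs. The members, lists and tests were chosen with earlier results of these data known. Alternatives covered the tool, the low-count filter, the block, mitochondrial and depth limits, doublet scores and both gates.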

Additional observations from a re-analysis of the deposited data

How the results depend on the processing

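Gene counts could not be recomputed with a dog left out, since 1 dog leaves no replicate, and p-values rest on 2 dogs sequenced against different annotations. With no replicate block, 0 genes were called in all 4 counts, and 141 of the named calls were lost. With no filter on low counts, 335 genes were called higher and 379 lower against ON cells, and 310 and 379 against other cells. A limit of 5% on names starting with MT- acted almost wholly on N354, since the annotation of N350 held 1 such name against 12. It left 63 OFF cells (2 in N354), 80 genes higher and 64 lower against ON cells, 98 and 12 against other cells, *RCVRN* at -0.27 against ON cells and *OTX2* at -0.28 against other cells. Requiring 3 or more of the 8 further genes gave 94 higher and 116 lower against ON cells, with *GLUL* at -0.21 and *VIM* at -0.34. ON cells with 0 UMIs of *PRKCA* gave 67 and 95, from fewer ON cells. Cells with 1000 or more UMIs gave 57 lower against other cells. Leaving out cells rich in other types' RNA, chosen after the data were seen, gave 309 higher and 618 lower against other cells. It turned *RLBP1* (-0.62), *GLUL* (-1.37), *SLC1A3* (-1.70), *VIM* (-2.67), *CRYAB* (-2.01) and *FOS* (-0.74) against ON cells and *GNB3* (-3.02) and *ACTB* (-1.82) against other cells. Of these genes the filter used *RLBP1*, *GLUL* and *SLC1A3*, and it was applied to OFF and ON cells but not to other cells. The cause of these changes was not tested. The number of OFF cells without 1 dog was 35 to 61. DESeq2, Scrublet removal of the top 4%, 7 further neuron markers at 0, ON cells with *TRPM1* and other cells including ON cells kept each count within 1.5 times, and lost 11, 24, 17, 2 and 4 named calls.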

Other observations

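Genes named in the annotation of 1 dog only could not be tested, and their values have no second dog. N350 had 19757 such names and N354 4706. *GSG1*, named in N350 alone, held 344 UMIs in 49 of 61 OFF cells, a level of 20.8 against 0.786 in ON cells (26.5-fold) and 0.123 in other cells. The dopamine D1 receptor *DRD1*, also named in N350 alone, was at 1.33 in OFF cells against 0.186 in ON cells (7.15-fold) and 0.322 in other cells. The metallothionein *MT3*, named in N354 alone, was at 5.88 in OFF cells against 1.47 in ON cells (3.99-fold) and 3.66 in other cells. These 3 genes were picked after their values were seen.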
